A study of Sus scrofa with 50 samples.

Results

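Backfat, the fat layer under the skin of the back, was compared with loin and tenderloin, a pair of skeletal muscles of the trunk, in Korean minipigs. The comparison rested on 27 of the 50 RNA sequencing libraries of the series: the backfat, the loin and the tenderloin of 9 of its 10 animals. 5 animals (S0235, S0242, S0276, S0309 and S0326) were labelled ET-type and 4 (S0349, S0377, S0384 and S0385) L-type, names that the labels do not spell out, and no treatment, age or genotype was given. Each animal gave 1 library per tissue, so the animal was the replicate, and the series also holds brain and lymph libraries that were not used. The remaining animal, S0355 (L-type), was left out because its library labelled backfat and its library labelled loin carried the transcripts of the other tissue: CKM was at 23749 TPM in the former and 0.638 TPM in the latter. The level of a gene is given in TPM (a share of all transcripts of a library that accounts for transcript length), summed over all assembled transcripts with the same best protein match. A change is the log2(TPM + 1) of backfat minus the mean of the same value in loin and tenderloin of that animal, averaged over animals with the types weighted equally, and is given with its standard error. A gene was called when its Benjamini-Hochberg adjusted p in limma's paired test was under 0.05.

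White adipose tissue stores triglyceride in fat cells that each hold a single large lipid droplet, takes up or synthesises fatty acids to fill it, and releases them by lipolysis under hormonal control. Around the fat cells lie collagen, vessels, macrophages and fibroblast-like progenitors. A skeletal muscle fibre is instead packed with sarcomeres, in which thick myosin and thin actin filaments slide past each other when calcium is released, and is fuelled by phosphocreatine, glycogen, glucose and fatty acids. Fast fibres lean on glycolysis and slow fibres on mitochondrial oxidation, and the muscles of an animal differ in how many of each they hold.

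The markers matched the labelled tissues in all 27 libraries. The 5 adipocyte markers (ADIPOQ, PLIN1, CIDEC, LIPE and FABP4) summed to 493 TPM in the lowest backfat library, 8387 TPM in the median library and 18876 TPM in the highest, against 31.4 to 118 TPM in loin and 28.1 to 120 TPM in tenderloin. The 5 muscle fibre markers (CKM, ACTA1, MYLPF, TNNC2 and TTN) summed to 3.87 to 243 TPM in backfat and to at least 37860 TPM in every muscle library. All 10 of these genes were measured, and no backfat library reached any muscle library in either sum. Muscle fibre transcripts were not equally rare in all backfat libraries: S0309 and S0385 had the highest sums, with CKM at 44.4 and 97.9 TPM against 0.0954 to 12.3 TPM in the other 7. Backfat also held markers of other cells, whose part in the differences below was not tested. The 4 fibroblast markers summed to 919 to 23189 TPM, the 3 endothelial markers to 28.8 to 1358 TPM with the lowest value in S0377, and the 3 macrophage markers to 32.2 to 256 TPM. The 3 T cell markers summed to at most 8.67 TPM. The 3 B cell markers summed to 12 to 38.6 TPM in backfat, 3.76 to 8.28 TPM in loin and 5.44 to 10.3 TPM in tenderloin, nearly all of it CD79A, while MS4A1 reached at most 0.3 TPM in backfat and was listed at 0 in all 18 muscle libraries. The 2 skin markers matched summed to 6.71 to 22.6 TPM in backfat, 5.13 to 13.3 TPM in loin and 4.18 to 8.91 TPM in tenderloin, most of it KRT10, with KRT5 at no more than 0.116 TPM in backfat. Among the muscle libraries, the loin library of S0235 stood apart from the other 8 loin libraries: HOXC8 was at 0.49 TPM there and 35.5 to 55.1 TPM in the others, and FABP3 at 466 TPM there and 30.3 to 108 TPM in the others. Between 10852 and 12336 genes reached 1 TPM in a backfat library, 10175 to 10755 in a loin library and 10345 to 10920 in a tenderloin library. In such bulk tissue, fewer cells of a type and less RNA per cell cannot be told apart.

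**Figure D1:**
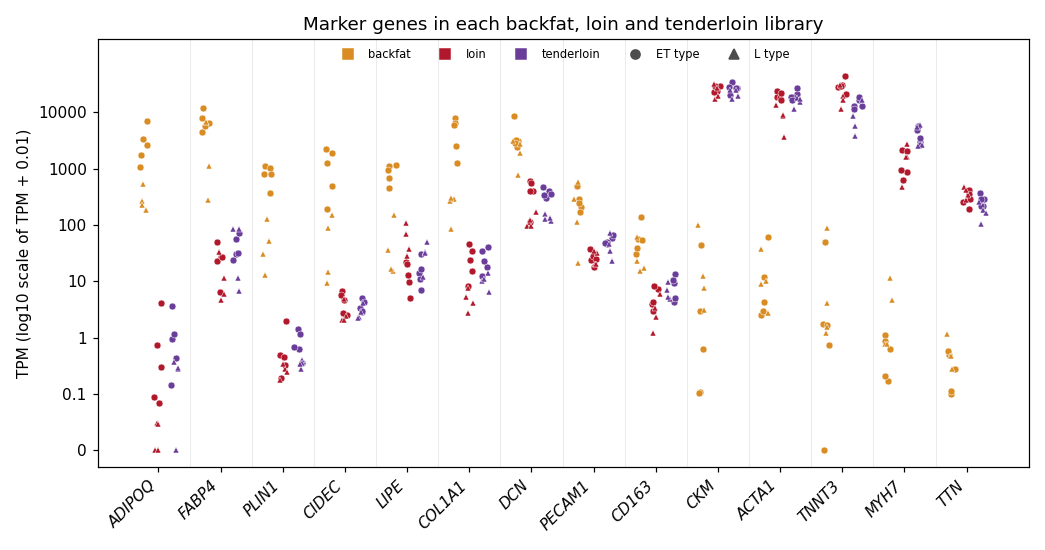
TPM of 14 marker genes (y axis, log10 scale of TPM + 0.01) in each of the 27 libraries (points), with genes along the x axis, colour for tissue and shape for type. ADIPOQ and CKM separate backfat from muscle in opposite directions, with ADIPOQ at 182 TPM or more in backfat and at most 4.2 TPM in muscle, while PECAM1 of 1 backfat library, at 21.5 TPM, lies in the muscle range.

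Of 11880 genes tested, 6849 (57.7%) were higher and 2429 (20.4%) lower in backfat. With a change of at least 2 log2 units, which is 4-fold, 1719 genes (14.5%) were higher and 653 (5.5%) lower. In 2441 genes (20.5%) every backfat library lay above all 18 muscle libraries, and in 712 (5.99%) every one lay below. TPM values add up to the same total in each library, of which the muscle genes of the lists below held 21.9 to 44.7% in muscle and 0.584 to 1.72% in backfat. The median change over all genes was 0.61. Median-ratio scaling, which sets the libraries to a common level over most genes, brought the median to 0.16 and the calls to 5117 higher (43.1%) and 3886 lower (32.7%), which raised the lower share of calls from 26.2% to 43.2%. Changes below are given without that scaling and are read against 0.61, and it is stated where a named gene or list changed sign with it. Counts of list members higher and lower in backfat are read against the 57.7% and 20.4% of all genes. Without S0309 and S0385, an alternative chosen after the data were seen, 6517 genes were higher and 2622 lower.

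The gene with the largest change towards backfat was ADIPOQ, which encodes adiponectin, an abundant hormone of fat cells. It measured 1076, 1706, 2590, 3375 and 6980 TPM in ET-type backfat and 182, 229, 268 and 539 TPM in L-type backfat, against at most 4.2 TPM in any muscle library. Backfat exceeded muscle in all animals, the ranges of the types did not overlap, and the change was 9.22 ± 0.28 (adjusted p = 7.53e-11). APOE, a lipid carrier that fat cells and macrophages secrete, ran from 317 to 8464 TPM in backfat and changed by 8.66 ± 0.20 (adjusted p = 8.93e-12). At the other end stood CKM, the creatine kinase of muscle, which took 17145 to 34871 TPM in muscle and changed by -11.79 ± 0.59 (adjusted p = 4.43e-09). The 15 strongest genes in each direction without overlap between the tissues were mostly fat-cell, matrix and sarcomere genes. They included SNCG, a small synuclein known in fat and nerve, MGST1, a membrane glutathione transferase, and MFAP2, a microfibril protein, among the higher genes, and TNNT1, TNNI2, MYBPC1 and KLHL41 of the sarcomere and its upkeep among the lower.

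Of 10 secreted fat-cell proteins tested, 7 were higher and 2 lower, with a median change of 2.20. With so few members these shares are not far from the 57.7% and 20.4% of all genes. CFD, the complement protease adipsin, was steady between backfat libraries at 655 to 1287 TPM, with a median of 916 TPM, and stood at 41.9 to 255 TPM in muscle, a change of 3.29 ± 0.13. ANGPTL4, an inhibitor of lipoprotein lipase, had a median of 269 TPM in backfat and 8.48 TPM in muscle, and RBP4, the retinol carrier, 74.2 and 0.323 TPM; both had no overlap between the tissues. LEP, which encodes leptin, the hormone that reports fat stores to the brain, was instead split between animals. It measured 2.92, 36.2, 70.1, 202 and 220 TPM in ET-type backfat, while it was listed at 0 in S0349 and S0377 and measured 0.0281 and 0.0242 TPM in S0384 and S0385. The highest muscle value was 0.0587 TPM, so L-type backfat did not rise above muscle for this gene, and the change of 2.87 ± 0.48 over both types rested on the ET-type animals. LPL, the lipase that frees fatty acids from lipoproteins at the vessel wall, overlapped between tissues at 14 to 576 TPM in backfat and 7.32 to 315 TPM in muscle, a change of 1.30 ± 0.25. NAMPT, an enzyme of NAD synthesis that is also secreted, and NRG4, a signal from fat to liver, were the members that were lower in backfat, at -1.51 ± 0.24 and -1.06 ± 0.35, the latter not called against tenderloin alone (-0.57).

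Of 21 transcription factors of fat-cell identity, 14 were higher and 1 lower, with a median change of 1.45. Over all genes 57.7% were higher and 20.4% lower. After scaling 12 of the 21 were higher and 6 lower. CEBPA and PPARG, the pair that drives fat-cell differentiation, had medians of 101 and 74.5 TPM in backfat. No muscle library exceeded 1.05 TPM for CEBPA or 3.82 TPM for PPARG, and the changes were 5.40 ± 0.28 and 5.11 ± 0.19. EBF1, an early factor of the lineage, changed by 3.27 ± 0.23 and CEBPD, an early inducer of differentiation, by 1.63 ± 0.13. RXRA, the partner with which PPARG binds DNA, was at 35.5 to 150 TPM in backfat and 12.1 to 107 TPM in muscle. Its change of 0.50 ± 0.19 lay below the median of all genes and shrank to about 0 after scaling. STAT5B was the member that was lower without scaling, at -0.56 ± 0.11, and was not called against tenderloin alone (-0.10).

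Of 13 proteins of the lipid droplet 8 were higher and 2 lower in backfat, shares near the 57.7% and 20.4% of all genes, with a median change of 1.72. PLIN1, the perilipin that coats the large droplet of fat cells, measured 362, 794, 813, 1011 and 1098 TPM in ET-type and 12.7, 31, 52.5 and 127 TPM in L-type backfat. All values lay above the muscle maximum of 1.94 TPM, and the change was 6.92 ± 0.28. CIDEA and CIDEC, which help small droplets merge into larger ones, changed by 6.87 ± 0.30 and 5.42 ± 0.42. CAV1 and CAVIN1, which build the caveolae that crowd the fat-cell surface, changed by 1.62 ± 0.22 and 2.42 ± 0.18. The members on the other side were PLIN5, the perilipin that links droplets to mitochondria in oxidative tissue, with a change of -1.40 ± 0.35 that was not called against loin alone (-0.46), and FITM1. FITM1, which takes part in forming droplets, was at 0 to 2.06 TPM in backfat and 144 to 312 TPM in muscle, a change of -6.70 ± 0.18. PLIN4, at 5.31 to 2409 TPM in backfat, and PLIN2, at 32.3 to 175 TPM, were not called, with changes of 0.43 ± 0.51 and 0.04 ± 0.12, and scaling turned the sign of both.

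Release of stored fat showed 14 of 16 members higher and 1 lower, against 57.7% and 20.4% of all genes. The median change was 2.70. FABP4, the fatty acid carrier of fat cells, ran from 274 TPM in S0377 through a median of 6306 TPM to 11988 TPM in S0235. Muscle libraries held 4.74 to 84.8 TPM of it, and the change was 7.27 ± 0.33 (adjusted p = 1.66e-09). CES1, a carboxylesterase, was at 18.3 to 1124 TPM in backfat and at most 1.95 TPM in muscle. Of the core lipases, PNPLA2, which takes the first fatty acid off triglyceride, was at 104 to 805 TPM in backfat and 62.2 to 398 TPM in muscle. LIPE, the hormone-sensitive lipase that acts next, measured 448, 682, 929, 1126 and 1165 TPM in ET-type and 15.2, 16.8, 35.5 and 148 TPM in L-type backfat, against 5.11 to 110 TPM in muscle. L-type backfat thus overlapped muscle for LIPE and ET-type did not, and the changes over both types were 0.98 ± 0.22 for PNPLA2, which was not called after scaling (0.47), and 2.84 ± 0.43 for LIPE.

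Fatty acid synthesis gave 15 higher and 2 lower of 19 members, against 57.7% and 20.4% of all genes. The median change was 2.12, with wide spread between backfat libraries. FASN, the fatty acid synthase, measured 17.2, 31.8, 461, 2735 and 3207 TPM in ET-type backfat and 4.98, 7.08, 10.3 and 45.9 TPM in L-type backfat, against 1.12 to 9.88 TPM in muscle. ET-type animals S0235 and S0276 lay within the range of the L-type for FASN, and 2 L-type libraries lay within that of muscle. The change was 4.25 ± 0.69. THRSP, a nuclear protein that promotes lipogenesis, and SCD, which introduces the first double bond into fatty acids, changed by 6.42 ± 0.52 and 3.78 ± 0.50. SCD showed the widest spread, from 0.872 TPM in S0384 to 3087 TPM in S0326. ELOVL6, an elongase, was at 2.78 to 949 TPM in backfat and at most 2.01 TPM in muscle. ACSL1, which activates fatty acids for either storage or oxidation, was lower in backfat at -1.62 ± 0.29, as was the transporter SLC27A1 at -1.39 ± 0.19. ME1, the malic enzyme that supplies NADPH for synthesis, was not called (-0.33 ± 0.42).

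Assembly of triglyceride was less one-sided: 9 of 16 members were higher and 5 lower, against 57.7% and 20.4% of all genes. The median change of 0.55 was near that of all genes. After scaling 6 were higher and 6 lower, with a median of 0.05. DGAT2, which adds the last fatty acid, was at 11.5 to 5088 TPM in backfat and at most 9.16 TPM in muscle, a change of 5.27 ± 0.46. PCK1, which makes glycerol 3-phosphate from pyruvate in fat, had a backfat median of 39.2 TPM and a muscle maximum of 0.374 TPM. AQP7, the channel through which glycerol leaves, changed by 2.47 ± 0.39 and the acyltransferase GPAT4 by 0.65 ± 0.24, which was not called after scaling (0.14) or against tenderloin alone (0.37). GPD1, which makes glycerol 3-phosphate from a glycolytic intermediate, was lower at -2.20 ± 0.27, and its mitochondrial partner GPD2 at -3.18 ± 0.15 with no overlap. Both also form a shuttle that carries reducing equivalents into mitochondria.

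Genes of insulin action and glucose entry did not share a direction, with 7 higher and 8 lower of 21 and a median change of -0.20. Over all genes 57.7% were higher and 20.4% lower. Scaling left 5 of the 21 higher and 11 lower and moved the median to -0.67. SLC2A4, the insulin-responsive glucose transporter GLUT4 of fat and muscle, was at 11.4, 27.1, 32.8, 92.3 and 136 TPM in ET-type and 0.633, 0.972, 5.6 and 9.33 TPM in L-type backfat. Muscle held 121 to 461 TPM, so that only S0326 overlapped, and the change was -4.16 ± 0.36. TRARG1, a regulator of GLUT4 traffic, went the other way: it was at 6.94 to 1101 TPM in backfat and at most 1.01 TPM in muscle, a change of 6.62 ± 0.32. AKT1 and AKT2, kinases downstream of the insulin receptor, changed by 1.85 ± 0.15 and 0.85 ± 0.22. AKT2 was not called after scaling (0.34) or against loin alone (0.46). PDK4, which blocks pyruvate entry into mitochondria, was lower at -1.27 ± 0.38, though not called against loin alone (-0.76).

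All 22 genes of fibrillar collagens and their processing were higher, with a median change of 3.23, 28 of 30 proteoglycans and glycoproteins (3.02), 15 of 16 basement membrane genes (1.87) and 17 of 18 remodelling genes (2.40), and none was lower. COL1A1, a chain of type I collagen, was at 1272, 2468, 6007, 6419 and 7876 TPM in ET-type backfat and 84.1 to 303 TPM in the 4 L-type libraries, against 2.76 to 46.7 TPM in muscle. COL3A1 and COL1A2 reached 8272 and 5847 TPM in their highest backfat library, where the highest muscle library held 149 and 72.2 TPM. The changes of the 3 chains were 6.06 ± 0.26, 4.51 ± 0.25 and 5.05 ± 0.26. POSTN, periostin, had the largest change among the glycoproteins at 7.23 ± 0.31, with 85.5 to 916 TPM in backfat and at most 1.01 TPM in muscle. SPARC and DCN, a collagen-binding glycoprotein and the proteoglycan decorin, had backfat medians of 2005 and 2864 TPM. In the basement membrane that wraps fat cells and vessels, COL4A1 and COL4A2 changed by 2.59 ± 0.18 and 3.58 ± 0.23. The proteases MMP2 and MMP14, which cut collagen, changed by 5.43 ± 0.26 and 5.73 ± 0.24, and their inhibitor TIMP2 by 3.19 ± 0.19. SERPING1, the inhibitor of complement C1, was even between backfat libraries at 805 to 1844 TPM against 30.2 to 135 TPM in muscle. After scaling, 20 of the 22 fibrillar genes were still called higher.

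Of 18 fibroblast and progenitor genes, 15 were higher and 1 lower: GSN, the actin-severing protein gelsolin, had a median of 4559 TPM in backfat and 407 TPM in muscle, CCDC80 changed by 4.33 ± 0.26, and CD34 by 3.33 ± 0.19. DPP4, a surface peptidase of progenitors, was the lower member (-0.49 ± 0.16), though its change was 0.07 in the most abundant transcript alone. Of 20 endothelial genes 18 were higher with a median change of 2.06, but none separated the tissues, against 20.5% of all genes. The library of S0377 held the lowest value in each case that follows: VWF, von Willebrand factor, was at 5.39 TPM there and at 141 to 649 TPM in the other 8 backfat libraries, and PECAM1 was at 21.5 TPM there and at 115 to 580 TPM in the other 8. Muscle held 10.4 to 36.4 TPM of VWF and 18 to 73.2 TPM of PECAM1. PLVAP, a protein of fenestrated vessels, and GPIHBP1, which anchors lipoprotein lipase on capillaries, changed by 4.86 ± 0.39 and 3.75 ± 0.38. LYVE1, a marker of lymph vessels and some macrophages, changed by 3.50 ± 0.52. Of 13 mural genes 7 were higher and 4 lower, no larger a share higher than the 57.7% of all genes. TAGLN of smooth muscle changed by 3.48 ± 0.22 and MYH11 by 2.38 ± 0.32, RGS5 of pericytes by -2.14 ± 0.25, and DES, which muscle fibres also make, by -7.98 ± 0.28.

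All 17 macrophage genes were higher, with a median change of 3.03. C1QB, a chain of complement C1q made by tissue macrophages, was at 79.3 to 477 TPM in backfat and 3.61 to 45.3 TPM in muscle, and GPNMB, a glycoprotein of lipid-laden macrophages, was at 22.6 to 195 TPM in backfat and at most 1.63 TPM in muscle. Their changes were 3.45 ± 0.16 and 5.17 ± 0.27. All 13 antigen presentation genes were higher, among them CD74 (2.75 ± 0.30) and B2M (2.02 ± 0.23), and 13 of 14 complement genes, among them C1S (4.62 ± 0.22) and C1R (4.02 ± 0.22). Of 8 neutrophil genes 7 were matched and 3 passed the filter on low values. Of 6 mast cell genes 3 were matched, and all 3 passed. The direction of these few genes is no result about either list. MS4A2, a chain of the IgE receptor of mast cells, changed by 3.02 ± 0.40. S100A12, a calcium-binding protein of neutrophils, measured 116, 160, 207, 334 and 573 TPM in ET-type backfat and 3.5, 12.4, 13.9 and 18.5 TPM in L-type backfat. It was at most 1.02 TPM in muscle. Of 16 T and NK cell genes 4 passed the filter, and their direction is likewise no result about the list. CD247 changed by 3.97 ± 0.28, while CD2, a surface marker of T cells, had a backfat median of 1.4 TPM and was not called after scaling. Of 11 nerve sheath genes 6 were higher and 2 lower, near the 57.7% and 20.4% of all genes, with a median of 0.75. S100B, which fat cells also make, changed by 2.99 ± 0.17. Without S0309 and S0385, 4 nerve sheath genes were higher and 3 lower.

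All 20 thick filament genes, all 18 thin filament genes and all 33 genes of the Z-disc and cytoskeleton were lower in backfat, with median changes of -8.11, -8.63 and -6.73. MYLPF and MYL2, regulatory light chains of fast and slow myosin, had muscle medians of 10626 and 15058 TPM and backfat medians of 0.548 and 2.06 TPM. Their changes were -11.64 ± 0.61 and -11.28 ± 0.46. The heavy chain MYH1 of fast fibres was at 1724 to 12578 TPM in muscle and 0.153 to 17 TPM in backfat, a change of -11.03 ± 0.49, and the slow chain MYH7 changed by -9.80 ± 0.40. TNNT3, TNNC1 and TNNC2, troponins of the calcium switch, changed by -11.57 ± 0.66, -11.20 ± 0.49 and -10.89 ± 0.54, and ACTA1, the skeletal actin, by -10.51 ± 0.48. TNNI1, the slow inhibitory troponin, was at 8.74 TPM in the S0385 backfat library and at most 0.468 TPM in the other 8. MYOZ1 of the Z-disc, at 4026 to 9990 TPM in muscle, changed by -11.14 ± 0.51 and TCAP, the cap of titin, by -8.74 ± 0.36. Not every structural gene was confined to muscle. CRYAB, a small heat shock protein that protects sarcomeres, was at 23.7 to 985 TPM in backfat and 313 to 11117 TPM in muscle, and FHL1, a LIM protein, at 155 to 1942 TPM and 1081 to 7124 TPM. DMD, which encodes dystrophin, overlapped as well, at 0.837 to 24.5 TPM and 15.6 to 62.1 TPM.

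Control of contraction followed the filaments, with 23 of 25 genes of excitation and calcium handling lower and 1 higher (median -5.07). ATP2A1, the calcium pump of fast fibres, was at 495 to 4630 TPM in muscle and 0.37 to 22.8 TPM in backfat, a change of -9.21 ± 0.40. CASQ1, which stores calcium in the reticulum, changed by -7.88 ± 0.24 and TRDN, which ties it to the release channel, by -7.39 ± 0.19. ASPH was the higher member at 2.0 ± 0.23; its locus yields both a hydroxylase of many tissues and the muscle protein junctin, which the summed values do not separate. At the nerve-muscle junction 5 of 6 genes were lower, from RAPSN (-3.06 ± 0.20), which clusters the acetylcholine receptor, to its subunit CHRNB1 (-0.84 ± 0.14), whose most abundant transcript alone changed by 2.12. Of 26 muscle regulators 24 were lower and 1 higher. MYF6, a factor that binds DNA in mature fibres, was at 41.1 TPM or more in muscle and at most 0.489 TPM in backfat. MYOG and MYF5, of the same family, were listed at 0 in all 9 backfat libraries and stood at 21.7 to 118 TPM and 0.496 to 4.4 TPM in muscle, and MYOD1 was at most 0.17 TPM in backfat. The ubiquitin ligases TRIM63 and FBXO32, which mark muscle proteins for breakdown, changed by -7.00 ± 0.21 and -5.24 ± 0.21. MSTN, myostatin, which restrains muscle growth, was listed at 0 in 7 backfat libraries and was at most 0.0574 TPM in the others, against 0.23 to 20.3 TPM in muscle. TBX15 was present in both tissues at 27.8 to 132 TPM and 60.3 to 250 TPM, a change of -0.90 ± 0.23.

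Of 20 genes of the phosphate buffer, oxygen store and glycogen, 19 were lower and 1 higher (median -4.54). MB, the oxygen store myoglobin, was at 2030 to 21196 TPM in muscle and 1.58 to 26 TPM in backfat, a change of -9.59 ± 0.29. PYGM, which breaks down glycogen in muscle, was at 1810 to 15129 TPM and 1.38 to 67.8 TPM, and PGM1, the next enzyme, changed by -4.19 ± 0.20 with backfat still at 34.8 to 119 TPM. The member that was higher in backfat was CKB, the brain-type creatine kinase, at 1.07 to 172 TPM against 0.272 to 4.1 TPM. Of 23 glycolysis genes 16 were lower and 6 higher (median -2.58). GAPDH, often used as a reference gene, was at 7718 to 41202 TPM in muscle and 511 to 1886 TPM in backfat, so that no library of one tissue reached the other, and changed by -4.46 ± 0.21. TPI1, the isomerase of the same pathway, changed by -3.05 ± 0.20.

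Mitochondrial genes were lower in backfat by smaller amounts than sarcomere genes. Of 26 genes of pyruvate entry and the citrate cycle, 23 were lower and 2 higher (median -1.43). SUCLG1, a subunit of succinyl-CoA ligase, was at 170 to 359 TPM in backfat and 550 to 1134 TPM in muscle, and MDH2, the malate dehydrogenase, changed by -2.73 ± 0.19. The exceptions were PC and PDHA1. PC, pyruvate carboxylase, which in fat feeds the export of citrate for lipid synthesis, was at 41.7 to 1976 TPM in backfat and 3.11 to 21.3 TPM in muscle, a change of 5.29 ± 0.36. PDHA1, a subunit of pyruvate dehydrogenase, changed by 1.01 ± 0.13. Of 42 respiratory chain genes 36 were lower and 5 higher (median -1.83). ATP5F1B, the catalytic subunit of ATP synthase, was at 180 to 997 TPM in backfat and 626 to 2519 TPM in muscle, a change of -1.91 ± 0.20, and NDUFA4 changed by -2.95 ± 0.17. COX8B, a muscle form of a cytochrome oxidase subunit, was listed at 0 in 8 backfat libraries and at 3.23 TPM in S0384, while muscle held 842 to 3943 TPM. Its ubiquitous counterpart COX8A was at 234 to 806 TPM in backfat and 66.7 to 148 TPM in muscle. UCP3, a carrier of the inner membrane that is usually described in muscle, overlapped: it was at 138 to 365 TPM in ET-type backfat, 3.21 to 110 TPM in L-type backfat and 44.3 to 348 TPM in muscle, a change of -1.64 ± 0.42.

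Of 23 genes of fatty acid oxidation 19 were lower and 3 higher (median -1.0). ACADM, the medium-chain dehydrogenase, was at 19 to 112 TPM in backfat and 180 to 706 TPM in muscle (-3.14 ± 0.16), and ETFA, which passes electrons on from these dehydrogenases, changed by -1.84 ± 0.16. HADH and ACOT2 were among the higher members at 0.64 ± 0.15 and 0.74 ± 0.20, but neither was called against tenderloin alone (0.26 and 0.07) or after scaling (0.13 and 0.23), which left 1 member of the list called higher. Breakdown of branched-chain amino acids showed no common direction, with 5 higher and 4 lower of 17 genes and a median of 0, which scaling moved to 1 higher and 8 lower. HIBADH of valine breakdown changed by -1.20 ± 0.21 and BCKDHA, a subunit of the committed step, by 0.91 ± 0.27, which was not called after scaling (0.40). Without S0309 and S0385 3 were higher and 6 lower.

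Many of these proteins come as a form typical of muscle and a form used elsewhere, and 33 such pairs could be tested. In 26 the muscle form was lower and the other form higher in backfat, in 5 the muscle form was lower and the other form not higher, and 2 showed another pattern. Over all genes 20.4% were lower and 57.7% higher, so a call of the other form as higher was the more common outcome. Under scaling 24 pairs were crossed in this way, of which 23 were crossed under both. COX7A2, whose change of 0.48 ± 0.15 became -0.03, ACTN4 and FHL2 were the other forms no longer called higher. The crossing was widest for CKM and CKB, at -11.79 ± 0.59 and 2.83 ± 0.31. CKM took 100% of the summed TPM of the pair in every muscle library and 0.0555 to 91.6% in backfat, where S0385 was highest. In translation, EEF1A2, the elongation factor of muscle and neurons, changed by -9.46 ± 0.37 and the general form EEF1A1 by 4.29 ± 0.23. EEF1A1 was at 7039 to 22583 TPM in backfat and 272 to 1198 TPM in muscle, and EEF1A2 took 60 to 92.4% of the pair in muscle and at most 0.192% in backfat.

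In glycolysis the enolases, mutases, lactate dehydrogenases and aldolases were all crossed pairs. ENO3, the muscle enolase, took 97.8 to 99.8% of the enolase pair in muscle and 0.526 to 13.4% in backfat, and PGAM2 95.4 to 99.7% and 0.102 to 8.17% of the mutase pair. LDHA, the form that favours lactate formation, took 52.5 to 99.3% of the pair in muscle and 2.89 to 13.7% in backfat, where LDHB stood at 873 to 3508 TPM. Aldolase C differed by animal: ALDOC, known from brain, measured 329, 1559, 1735, 2176 and 4300 TPM in ET-type backfat and 34.2, 53.2, 65.2 and 128 TPM in L-type backfat, against at most 10.3 TPM in muscle. The ranges of the types did not overlap for ALDOC, and its change was 6.12 ± 0.25. In the first step of glucose use, HK2 changed by -1.82 ± 0.33 and HK1 by 3.90 ± 0.17, and the transporters SLC2A4 and SLC2A1 by -4.16 ± 0.36 and 2.41 ± 0.25.

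Fatty acid handling crossed in the same way. FABP3, the carrier of heart and muscle, took 53.9 to 99.2% of the pair with FABP4 in muscle and 0.539 to 10.6% in backfat. CPT1B, the muscle gate for fatty acids into mitochondria, changed by -3.72 ± 0.33 and CPT1A by 2.71 ± 0.20. ACACB, whose product restrains that gate, changed by -3.03 ± 0.20 and ACACA, which feeds synthesis, by 2.46 ± 0.30. At the inner membrane the ATP carriers SLC25A4 and SLC25A5 changed by -5.63 ± 0.15 and 1.56 ± 0.15, and the oxidase subunits COX6A2 and COX6A1 by -5.57 ± 0.24 and 3.51 ± 0.15. The pairs that did not cross included the calcium pumps ATP2A1 and ATP2A2, both lower, and the coactivators PPARGC1A and PPARGC1B, of which the former was lower at -3.42 ± 0.20. FHL1 counted as crossed but still took 97.2 to 99.9% of the pair with FHL2 in backfat.

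**Figure D2:**
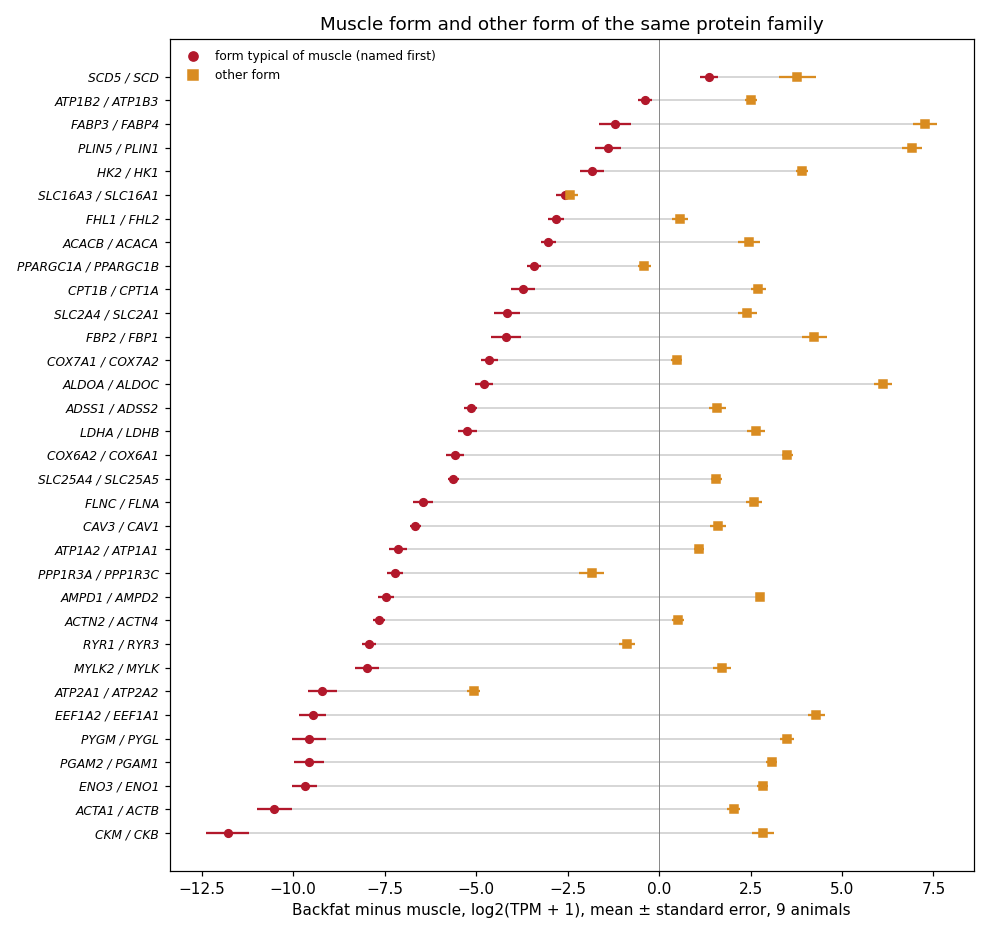
Change between backfat and muscle (x axis, log2 of TPM + 1, mean ± standard error over 9 animals) for both members of 33 protein pairs (y axis), with the muscle form as a circle and the other form as a square. The 26 crossed pairs have the circle below 0 and the square above it, as CKM at -11.79 and CKB at 2.83.

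Genes that most cells use were not level either. All 35 ribosomal protein genes tested were higher in backfat (median 1.60; 34 after scaling, median 1.09). RPLP2, a stalk protein, was at 6401 to 26624 TPM in backfat and 1510 to 4541 TPM in muscle. Its change was 2.19 ± 0.17, and the tissues did not overlap. Copies of ribosomal genes elsewhere in the genome share their sequence, and the sums by protein match do not separate them. Of 25 proteasome genes 21 were lower and 1 higher (median -0.66), among them PSMB5 at -1.11 ± 0.15 and PSMB4 at -0.66 ± 0.13. Of 22 cholesterol genes 16 were higher and 2 lower (median 1.1), against 57.7% and 20.4% of all genes. LSS, which closes the sterol ring, changed by 3.21 ± 0.25 and the HDL receptor SCARB1 by 2.76 ± 0.34. IDI1 of the early pathway was lower at -0.65 ± 0.22, with -0.02 against tenderloin alone.

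Of 15 genes of growth hormone and IGF action 12 were higher and none lower (median 1.99), against 57.7% and 20.4% of all genes. IGFBP3 and IGFBP7, which bind IGF in tissue fluid, changed by 4.79 ± 0.34 and 2.70 ± 0.46. Of 22 HOX genes, which record position along the body, 10 were higher and 4 lower, against 57.7% and 20.4% of all genes. Scaling left 10 higher and 7 lower and moved the median from 0.42 to -0.04. HOXB7 was at 12.2 to 59.2 TPM in backfat and 0.168 to 5 TPM in muscle, a change of 3.28 ± 0.21. HOXC10 went the other way, at 0 to 7.23 TPM in backfat against 40.9 to 77.5 TPM in loin and 16.7 to 41.8 TPM in 8 tenderloin libraries, with 0.131 TPM in the tenderloin library of S0349. Of 24 nuclear receptor and clock genes 6 were higher and 5 lower, against the same shares of all genes. Scaling left 5 higher and 10 lower and moved their median from 0.12 to -0.35. HSD11B1, which regenerates cortisol in fat, changed by 1.83 ± 0.21 and TSC22D3, a target of glucocorticoids, by 1.21 ± 0.14.

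**Figure D3:**
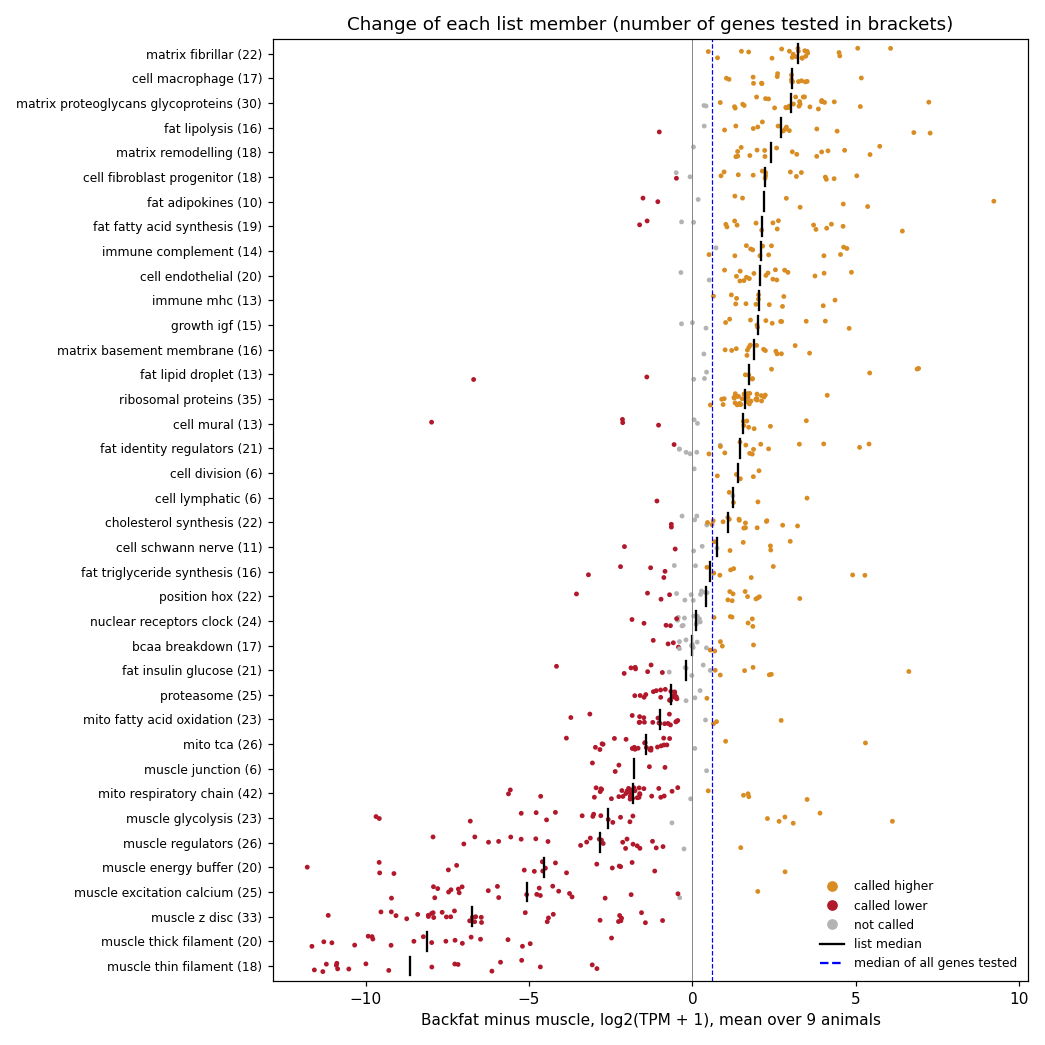
Change between backfat and muscle (x axis, log2 of TPM + 1) of each tested gene (points) of the lists with at least 6 tested genes (y axis), coloured by call, with the list median as a bar and the median of all genes tested as a dashed line at 0.61. Matrix and macrophage lists lie to the right and sarcomere lists to the left, with medians of 3.23 for fibrillar matrix and -8.63 for thin filaments.

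Summed over the lists, the genes of fat function held 0.447 to 4.47% of a backfat library and 0.312 to 0.521% of a muscle library. They held 1.78 to 4.47% in ET-type and 0.447 to 1.51% in L-type backfat, so that the types did not overlap. Connective tissue genes split in the same way, with 2.88 to 6.89% and 1.03 to 1.9%. Ribosomal protein and proteasome genes had the opposite order, with 6.45 to 8.48% in ET-type and 11.2 to 17.6% in L-type backfat, against 3.02 to 5.08% in muscle. Within the fat and connective tissue classes, some lists overlapped between the types and others did not. The lipolysis list held 0.785 to 1.6% in ET-type and 0.0511 to 0.804% in L-type backfat. For the matrix remodelling list the ranges were 0.268 to 0.562% and 0.282 to 0.387%. These shares add to a fixed total with all other genes.

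**Figure D4:**
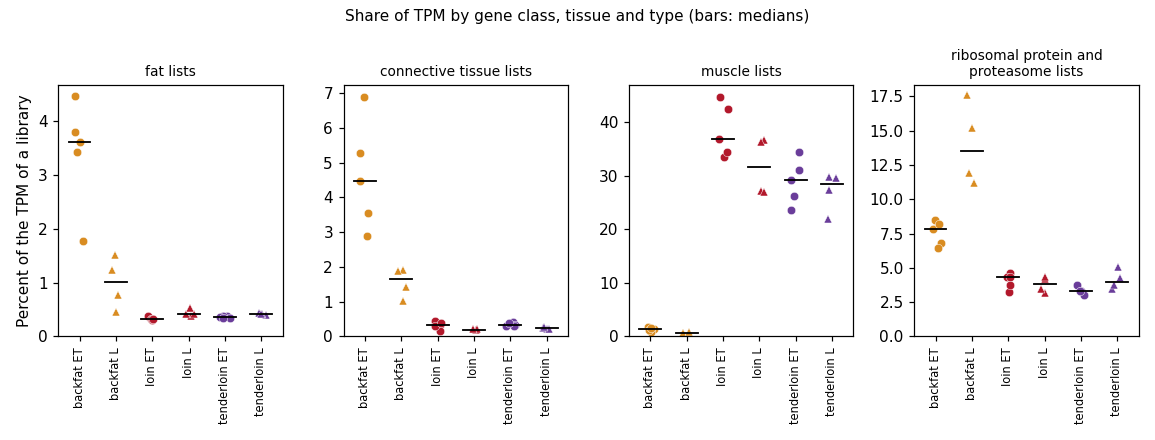
Percent of the TPM of a library (y axis) held by 4 classes of genes in each library (points), by tissue and type (x axis), with medians as bars. The fat and connective tissue classes of backfat are higher in the ET-type animals, at up to 4.47% and 6.89%. The ribosomal protein and proteasome class, nearly all of it ribosomal protein, is higher in the L-type, at up to 17.6%.

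The dependence on type was tested as the ET-type minus the L-type value of the change between backfat and muscle, so it also reflects any difference between the types in muscle. Of the genes tested 1443 (12.1%) had a higher value in ET-type animals and 205 (1.73%) a lower one, with a median over all genes of 0.37. Median-ratio scaling gave 497 higher (4.18%) and 419 lower (3.53%) and a median of -0.02. With 5 and 4 animals the counts moved with single animals. Higher calls fell to 887 without S0242, 625 without S0326, 723 without S0377, 570 without S0384 and 925 without S0385. Lower calls fell to 101 without S0235, 93 without S0242, 57 without S0326, 99 without S0377, 68 without S0384 and 125 without S0385, and without S0309 and S0385 together 631 and 121 remained called. Counted either way, 2653 genes (22.3%) depended on type for backfat against loin and 604 (5.08%) for backfat against tenderloin.

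Fat storage genes were among those higher in ET-type animals: 8 of 19 fatty acid synthesis genes, 10 of 16 triglyceride synthesis genes, 8 of 16 lipolysis genes and 5 of 13 droplet genes were called in that direction, as were 10 of 17 genes of branched-chain amino acid breakdown and 13 of 23 of fatty acid oxidation. After scaling 7, 10, 8 and 5 of the storage genes, 5 of the branched-chain genes and 4 of the oxidation genes were called so. LIPE, whose values are given above, had a type difference of 6.02 ± 0.85 (adjusted p = 0.00381), SCD of 5.82 ± 1.0 (adjusted p = 0.00685) and LEP of 5.72 ± 0.96 (adjusted p = 0.00655). DGAT2 was at 129, 477, 1313, 4419 and 5088 TPM in ET-type and 11.5, 17.9, 21.7 and 143 TPM in L-type backfat. The lowest ET-type value lay within the L-type range, and the difference was 5.21 ± 0.92. FASN, with its outlying animals, did not pass the test (4.12 ± 1.38, adjusted p = 0.0659). RETSAT, which saturates retinol and is abundant in fat, was at 253 to 1336 TPM in ET-type and 17.6 to 131 TPM in L-type backfat, a difference of 4.84 ± 0.59. SDR16C5, another enzyme of retinol metabolism, was at 73.9 to 604 TPM and 0.203 to 5.62 TPM (5.78 ± 0.66). PLIN4 and ME1, which were not called between the tissues over both types, differed between the types by 4.72 ± 1.02 and 4.70 ± 0.84. MCCC2, of leucine breakdown, measured 29.6, 98.4, 110, 111 and 160 TPM in ET-type and 4.06, 4.18, 12 and 19.2 TPM in L-type backfat, a difference of 4.07 ± 0.45 with no overlap. BCAM, a laminin receptor, was at 457 to 2564 TPM and 5.33 to 117 TPM (5.29 ± 0.80).

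Some genes of other cells and of muscle followed the type as well. S100A12, given above, differed by 4.29 ± 0.52 and COL1A1 by 2.64 ± 0.52, and 10 of 22 fibrillar matrix genes (5 after scaling) were higher in ET-type animals. None of the 20 endothelial genes was called for type in either direction. CA3, a carbonic anhydrase of slow muscle and fat, had the largest type difference named here, at 6.66 ± 0.92. It was at 63.2, 371, 383, 534 and 1150 TPM in ET-type and 0.707, 1.39, 6.01 and 7.16 TPM in L-type backfat. The muscles moved in opposite directions: loin held 1280 to 2598 TPM in ET-type and 343 to 1000 TPM in L-type animals, tenderloin 238 to 587 TPM and 984 to 4170 TPM. Neither pair of ranges overlapped, and the type difference of loin minus tenderloin was 4.10 ± 0.28 (adjusted p = 4.38e-05). In that test 66 genes (0.556%) were higher and 896 (7.54%) lower.

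The change of 18 of the 35 ribosomal protein genes was larger in L-type animals (24 after scaling). RPL34 measured 1025, 1188, 1226, 1621 and 1772 TPM in ET-type and 3419, 3448, 3604 and 4861 TPM in L-type backfat, with 506 to 1024 TPM in muscle. The ranges of the types did not overlap, and the type difference was -1.57 ± 0.29 (adjusted p = 0.00952). RPL11 differed by -1.33 ± 0.25. IGFBP5, a binding protein of IGF, was at 28.5, 113, 123, 128 and 166 TPM in ET-type and 257, 288, 462 and 730 TPM in L-type backfat, a difference of -3.95 ± 0.64. In loin its order was reversed, at 23.4 to 42.4 TPM in ET-type and 2.09 to 5.66 TPM in L-type animals. LIMS2, an adaptor of cell adhesion, and MEF2B, a DNA-binding factor, differed by -2.21 ± 0.37 and -1.50 ± 0.26. DPP4, a progenitor marker, was at 0.374 to 2 TPM in ET-type and 2.67 to 10 TPM in L-type backfat (-2.15 ± 0.31). The summed fat lists and connective tissue lists held smaller shares of L-type backfat, though some single lists overlapped between the types. Their part in these differences was not tested.

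Loin and tenderloin gave similar totals when each was set against backfat: 6602 genes (55.6%) were higher and 2621 (22.1%) lower against loin, and 6888 (58.0%) and 2201 (18.5%) against tenderloin. Both use the same backfat libraries, so their values are given side by side. Between the muscles themselves 3032 genes (25.5%) were higher in loin and 2615 (22%) lower, which scaling turned to 2347 and 3530. MYH4, the myosin heavy chain of the fastest fibres, was at 5956 to 21690 TPM in loin, 63.2 to 584 TPM in tenderloin and 0.309 to 36.3 TPM in backfat. Backfat minus loin was -11.69 ± 0.49 and backfat minus tenderloin -5.36 ± 0.61, and loin exceeded tenderloin by 6.33 ± 0.18 (adjusted p = 1.12e-09). IGFN1, a Z-disc protein, and MYH8, the perinatal myosin, showed the same order, with loin over tenderloin by 6.06 ± 0.50 and 4.93 ± 0.37. The myosin genes are near copies of each other, and assembly and counting may share reads between them. ACTN3, the actinin of fast fibres, was at 2079 to 4765 TPM in loin and 154 to 1539 TPM in tenderloin. Of 23 glycolysis genes 15 were higher and 7 lower in loin, and of 25 excitation genes 19 were higher (17 after scaling) and 3 lower, with LDHA over tenderloin by 1.92 and PYGM by 1.70.

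In loin, 41 of 42 respiratory chain genes and 19 of 23 of fatty acid oxidation were lower, against 1 and none that were higher, and scaling kept those directions with 41 and 21 lower. MYL2 was at 2358 to 15897 TPM in loin, the highest value in S0235, and at 14420 to 55895 TPM in tenderloin. FABP3 was at 30.3 to 466 TPM and 266 to 867 TPM, so that backfat did not differ from loin by the test (0.25 ± 0.46, adjusted p = 0.622) and was lower than tenderloin (-2.68 ± 0.43, adjusted p = 0.000111). Without S0235 the FABP3 values were 0.47 ± 0.45 and -2.61 ± 0.47. LPL showed the converse: backfat was higher than loin by 2.48 ± 0.30 and not called against tenderloin (0.11 ± 0.24, adjusted p = 0.679). ATP2A2, the calcium pump of slow fibres, was at 124 to 388 TPM in loin and 446 to 1633 TPM in tenderloin. Of the connective tissue and vessel lists, 15 of 22 fibrillar, 16 of 30 proteoglycan, 8 of 16 basement membrane, 6 of 18 remodelling, 9 of 18 fibroblast, 16 of 20 endothelial and 11 of 13 mural genes were lower in loin, against 22% of all genes. Higher in loin were 1 remodelling and 2 fibroblast genes.

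The comparison of some regulators with backfat depended on the muscle. HOXC8 was lower in backfat than in loin (-2.66 ± 0.45) and higher than in tenderloin (1.26 ± 0.18). The loin library of S0235 lay within the tenderloin range for HOXC8, and without that animal the values were -3.14 ± 0.20 and 1.25 ± 0.20. HOXD8 was at 43.1 to 90.1 TPM in loin, 8.53 to 25 TPM in tenderloin and 12 to 30.5 TPM in backfat. Backfat was lower than loin (-2.03 ± 0.16) and not called against tenderloin (0.10 ± 0.18, adjusted p = 0.616), and loin exceeded tenderloin by 2.13 ± 0.15. PRRX1, a factor of limb and connective tissue progenitors, was at 6.85 to 20.9 TPM in loin and 38.1 to 105 TPM in tenderloin. Backfat, at 28.3 to 124 TPM, was higher than loin by 2.16 ± 0.28 and not called against tenderloin (-0.22 ± 0.24, adjusted p = 0.414). RCAN2, an inhibitor of calcineurin, was at 1.86 to 22.5 TPM in loin, again highest in S0235, and 23.4 to 78.8 TPM in tenderloin. Backfat was not called against loin for RCAN2 (0.12 ± 0.25, adjusted p = 0.668) and was lower than tenderloin (-2.80 ± 0.24). TBX1, a factor of muscle development, was at 2.74 to 19.6 TPM and 38.3 to 64.7 TPM, and backfat was lower than both muscles, at -1.42 ± 0.28 and -4.15 ± 0.30. Without S0235 the counts between the muscles were 3146 higher in loin and 2732 lower.

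**Figure D5:**
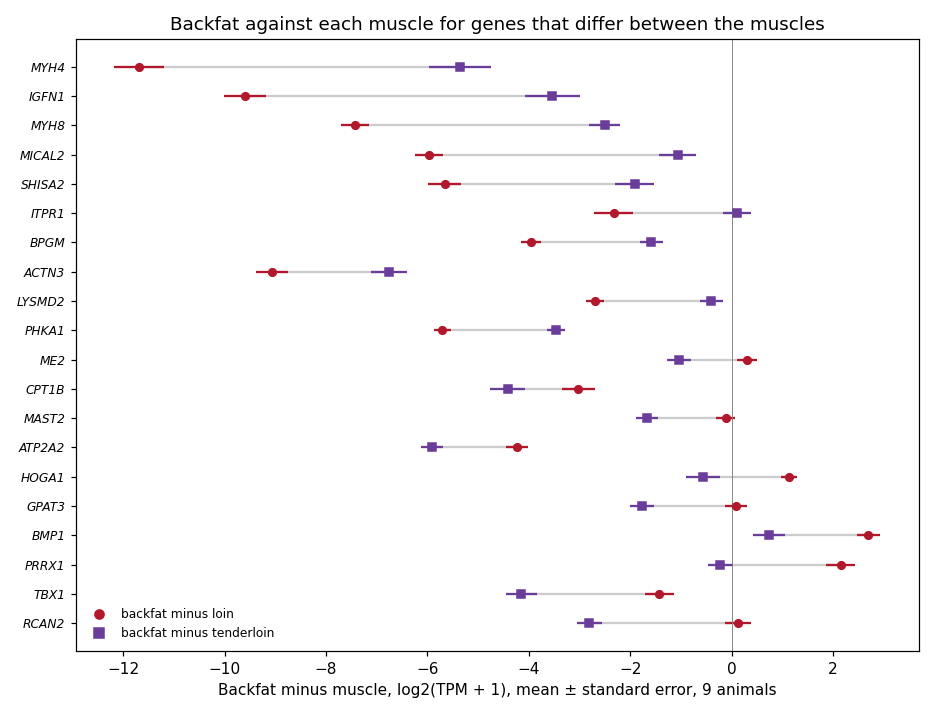
Backfat minus loin (circles) and backfat minus tenderloin (squares) on the log2(TPM + 1) scale (x axis, mean ± standard error over 9 animals) for 20 genes (y axis) that differ between the muscles. The circles and squares of MYH4 stand at -11.69 and -5.36, and for PRRX1 only the circle, at 2.16, lies clear of 0.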

How the data were processed

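Per the labels' protocols, TRIzol was used to isolate RNA from 5 tissues of 10 Korean minipigs, and a TruSeq stranded kit for mRNA gave 50 libraries. The submitters' processing notes name Trimmomatic 0.36, Salmon 1.10.0 and the pig build Sscrofa11.1, without their roles. The authors deposited TPM values for 57085 transcripts with their best protein match; each column sums to 1000000, so sequencing depth is unknown, and no interval for counting error can be given. TPM was summed over the 32170 transcripts with an animal Swiss-Prot match at an E value of at most 1e-10, which left out 20601 without a match, 1864 above that E value, 2430 of repeats or retroviruses and 20 from outside animals. The matched proteins are often those of other species (median identity 92.9%), and symbols were assigned to them by hand, so paralogs may be merged.

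Genes with a mean of at least 1 TPM over the 27 libraries (11880 of 14420) were tested by limma (3.58.1, under R 4.3.3). It was fitted to the within-animal differences of log2(TPM + 1), with an intensity trend and a type term, and p-values were adjusted over all genes tested. Fold changes on this scale understate those of low genes. In simulated data of 10579 genes, a small part of which was given known changes, recovery was 100% at 1 and 2 log2 units. The false share of calls was 2.91%. The simulation used loin levels, the same spread for all genes and no type effect, so these values are no error rate of the calls above. Tissues of an animal are paired by the labels: deviations from the group means correlated within animals with a median r of 0.15 for backfat and loin, 0.16 for backfat and tenderloin and 0.44 for the muscles, against -0.01, -0.01 and -0.04 between animals. The labels do not say how many sampling days or preparation batches there were.

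Members and the 44 lists (865 genes, 814 matched, 755 tested after the filter on low values) were chosen with earlier results of these data known. Genes were named by rule: the 15 largest changes in each direction without overlap and with at least 20 TPM, up to 5 called members of a list by level and 2 against its direction, the isoform pairs, and the 10 smallest p for type in each direction with at least 5 TPM, of which fewer are printed. LEP, RBP4, EBF1, MYOG, MYF5, MYOD1, MSTN, PLIN4, PLIN2, ME1, ELOVL6, MYH7, UCP3 and DMD, and the genes given for the S0235 loin library, were chosen after their values were seen. Alternatives were another pseudocount, filter, scaling, muscle mean, single muscle, transcript choice, E value, trend, no type term, no pairing, S0355 included and each animal left out. Some items are not reported here.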

Additional observations from a re-analysis of the deposited data

Results flagged for a closer look

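Of the 30 genes with the largest changes, 8 differed between the types in their change from muscle to backfat by limma's test of the difference, each larger in the ET-type animals. Of all genes tested 12.1% were called higher and 1.73% lower in that test (4.18% and 3.53% after scaling), with a median of 0.37. The 30 genes were picked by their change in the same data. The difference was 4.45 on the log2 scale for TRARG1, 4.42 for ALDOC, 3.81 for PLIN1, 3.69 for CES1, 2.64 for COL1A1, 2.48 for ADIPOQ, 2.23 for APOE and 2.19 for PPP1R1B, a phosphatase inhibitor.

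The same 30 genes were searched for animals that stood apart from the other 8, by the gap to the nearest value as a share of the range (Dixon's 95% criterion). TNNI1 met this with a difference between backfat and muscle of -8.03 in S0385, against values down to -12.43 in the others. Chance alone would pick out about 1 in 20 such groups.

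The libraries of S0355 entered no comparison except the alternative that included them under their labels. Those labelled backfat and loin held the signal of the other tissue. ADIPOQ was at 1139 TPM in the library labelled loin and 3.33 TPM in that labelled backfat, and CKM was at 23749 TPM in that labelled backfat. The tenderloin library of the same animal had 0.0287 TPM of ADIPOQ and 23133 TPM of CKM.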

How the results depend on the processing

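The counts of genes higher and lower in backfat stayed within 1.5 times of 6849 and 2429 under every alternative run but median-ratio scaling, which gave 3886 lower. Of changes of at least 2 log2 units, a pseudocount of 5 left 774 higher and scaling 1050. With no replicate block, that is without pairing by animal, 7038 and 2547 genes were called between backfat and muscle, 1712 and 1046 between the muscles and 2559 and 401 for type. Including S0355 under its labels gave 1449 and 640 between the muscles and 331 and 1 for type. Type calls were 497 and 419 under scaling, 2392 higher with loin alone, 533 higher and 71 lower with tenderloin alone, and 631 and 121 without S0309 and S0385. Leaving out 1 animal at a time gave 570 to 1706 higher and 57 to 247 lower. The 5 and 4 animals of the types, unknown depth and the fixed TPM total limit these comparisons, and the cause of the shifts was not tested.

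For 196 named genes, 4556 of 4678 values under alternatives kept direction and side of the threshold, 85 lost and 11 gained a call, and 26 changed sign. Under scaling COX7A2 was at -0.033, MCCC2 at -0.35, PLIN2 at -0.47, PLIN4 at -0.076 and RXRA at -0.001. With loin alone DPP4 was at 0.24, FABP3 at 0.25, RCAN2 at 0.12 and RXRA at -0.15. With tenderloin alone HOXC8 was at 1.26, HOXD8 at 0.10, MCCC2 at -0.082, PLIN2 at -0.64 and PRRX1 at -0.22. The most abundant transcript gave 2.12 for CHRNB1, 0.07 for DPP4, -0.39 for MCCC2 and -0.17 for PLIN2, and an E value of at most 1e-50 gave 0.07 for DPP4 and -0.39 for MCCC2. ME1 was at 0.025 with a pseudocount of 5 and 0.057 with S0355. PLIN2 was at -0.15 with the log of the mean. Leaving out 1 animal at a time put MCCC2 between -0.038 (without S0349) and 0.27, PLIN4 between -0.011 (without S0349) and 0.77, and PLIN2 between -0.028 (without S0326) and 0.089.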
